A study of Oryza sativa Japonica Group with 8 samples.

Results

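The expressed loci of the heterochromatic region of rice chromosome 4 were described in 8 RNA-seq libraries. Its members were the 766 loci on chromosome 4 that ended at or below base 17000000, of 2767 loci on this chromosome and 31187 in the table. The other 2001 loci of chromosome 4 served as the background. The members lay between bases 57309 and 16996903 of MSU Release 7, and were chosen by position alone. The libraries were 8 poly(A) RNA samples of rice (Oryza sativa, subspecies Japonica), grown in a greenhouse. They came from flowers on the day of flowering and from flower buds, from flag leaves after and before flowering, from roots labelled as after and before flowering, and from mature seeds and milk grains. Each group held 1 library. Each leaf and root library mixed material of several stages, so it is an average over time, and material taken after flowering is called late and material taken before it early.

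Heterochromatin is chromatin that stays condensed, is rich in repeats and transposable elements, and usually carries few active genes. Rice chromosome 4 is known for a strongly heterochromatic short arm, centromere and adjoining part of the long arm, beside a gene-rich distal long arm. The short arm is also known for a cluster of genes that make momilactones, diterpenoid defence compounds of rice, and no locus is assigned to it here. The table holds no chromatin mark, so the label of the region could be checked only by the density and level of its loci. It names loci by assembly identifiers, of which 0 matched the RefSeq gene table at hand, so that loci carry neither names nor annotated features. For the same reason the organ labels could not be checked with marker genes.

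All levels are FPKM, a level per transcript length and per mapped fragments of the library, as the authors deposited them. The read depth is unknown, and the summed FPKM of the libraries lay between 569819 and 611306. The late library labelled roots looked like a leaf sample also among the members. Its Pearson r across the 766 loci, on the scale of log2(FPKM + 1), was 0.980 with late leaves and 0.609 with early roots. It keeps its label in the text, and organ groups leave it out. Without replicates there is no error for any library, and no test was made between libraries or between regions. The 95% Wilson intervals below cover counting error over loci only, and loci are not replicates.

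The region was sparse in loci that exceeded 1 FPKM in some library, the only ones listed. It held 45.1 loci per Mb, against 108 per Mb in the rest of chromosome 4, a ratio of 0.417. It took 47.9% of the chromosome's length to its last locus and 27.7% (26% to 29.4%) of its loci. In windows of 1 Mb the count lay between 22 and 72 loci, with a median of 47, and in the 18 full windows of the rest between 42 and 143, with a median of 111.5. The emptiest windows of the region were the third, the fourth and the eleventh from the tip of the short arm, with 24, 22 and 24 loci. The fullest was the window at the tip, with 72 loci. The count did not step at the boundary. The last window inside it held 66 loci, the window just outside 42, and the next ones 77 and 77 before the count reached 115. The median over loci of the mean FPKM was 0.731, 1.04 and 0.839 in the emptiest windows, but it did not follow the count. It was highest in the windows that ended at 15, 13 and 16 Mb, with 42, 48 and 29 loci, at 5.17, 4.89 and 4.79. The window that ended at 14 Mb also held 48 loci, and its median was 2.07. The median was 3.60 at the tip, 2.55 in the last window inside and 1.45 just outside.

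**Figure D1:**
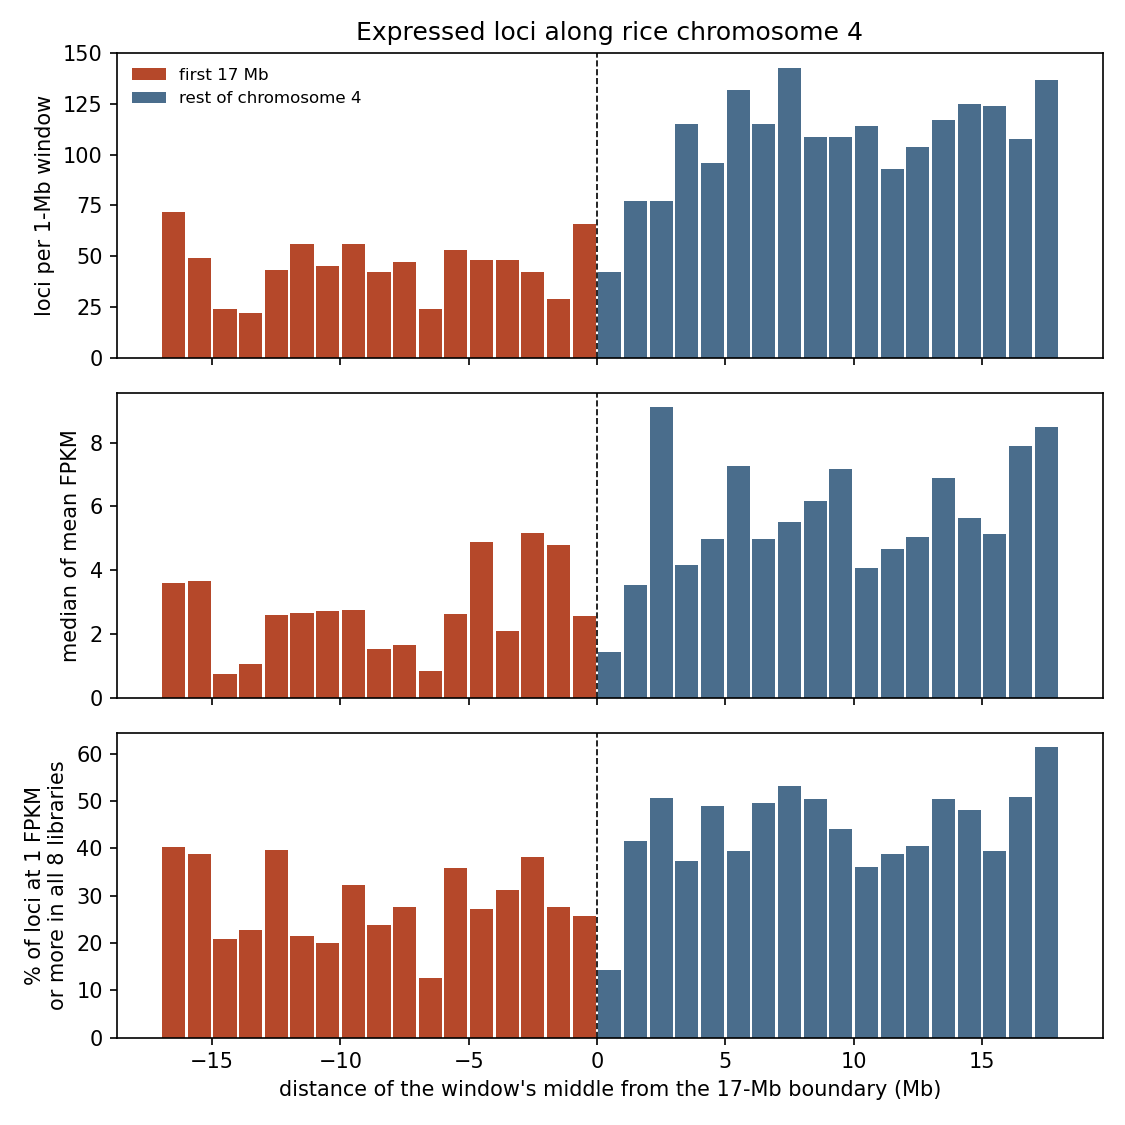
Loci per 1-Mb window (top), median over the loci of a window of the mean FPKM over 8 libraries (middle) and percentage of loci with at least 1 FPKM in all 8 libraries (bottom), against the distance of the window's middle from the 17-Mb boundary, for the 35 full windows of chromosome 4. Windows inside the region held 22 to 72 loci, and windows of the rest 42 to 143, the lowest of these next to the boundary.

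Long stretches without a listed locus separated the members. Only loci above 1 FPKM in some library are listed, so weaker or silent loci within these stretches would not be seen. The median distance between neighbouring positions was 9312.5 bases, against 2907 in the rest of the chromosome, and 20 gaps were wider than 100000 bases, against 1 in the rest. The widest gap, 287760 bases, lay between XLOC_036138 (10158764 to 10164503) and XLOC_038917 (10452264 to 10453725). The locus on its left had 3.46 FPKM in flowers and 2.40 in flower buds, and 0.00571 or less in the other 6 libraries. The loci themselves were of like length. Members with a position of their own had a median span of 3358 bases (quartiles 1581 and 6137), against 3299 (1887 and 5095) in the rest. A position shared with another locus was found for 35.1% (31.8% to 38.6%) of the members and 33.8% (31.7% to 35.9%) of the rest. Such a span can hold loci whose reads were hard to separate, and libraries without strand cannot tell overlapping loci on opposite strands apart.

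Stretches of the other chromosomes up to the same coordinate were fuller. They were matched by coordinate alone, without regard to chromosome length or the place of the centromere. The first 17 Mb of the other 11 chromosomes held between 58.3 and 109.5 loci per Mb, with a median of 66.6, so that chromosome 4 was the lowest of 12. The lowest of the others was chromosome 10.

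Levels in the region were also lower, by the median in 8 of 8 libraries. The median member had 2.17 FPKM in flowers and 2.12 in flower buds, where the median locus of the rest had 5.29 and 5.42. In late leaves the medians were 2.04 FPKM for members and 3.70 for the rest, and in early leaves 1.78 and 3.83. The late library labelled roots had 1.94 and 3.60 FPKM, and early roots 1.22 and 3.86. Mature seeds had 1.41 FPKM for members and 4.01 for the rest, and milk grains 0.652 and 2.10. The ratio of the medians, members over the rest, was lowest in milk grains (0.310) and in early roots (0.315). It was highest in late leaves (0.551) and in the late library labelled roots (0.540). The quartiles of both sets overlapped widely in each library. In early roots, for example, the quartiles were 0.122 and 5.97 FPKM for members and 0.733 and 13.9 for the rest.

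**Figure D2:**
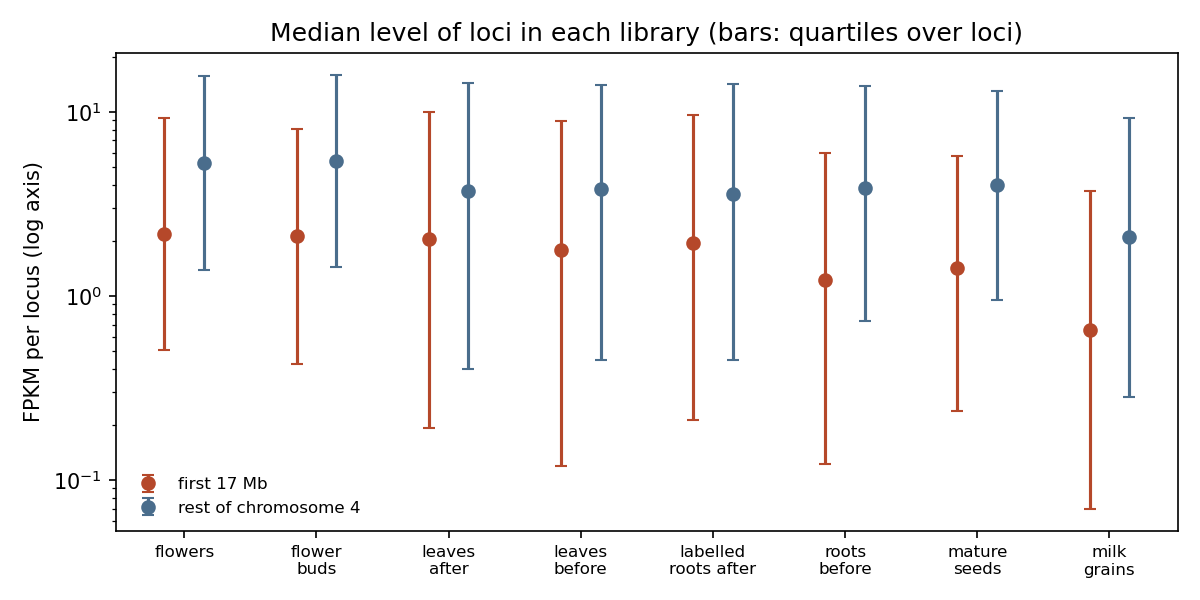
Median FPKM per locus on a log axis, with quartiles over loci as bars, for the 766 members in the first 17 Mb and the 2001 loci of the rest of chromosome 4 in each of the 8 libraries. The members' median was the lower one in 8 of 8 libraries, and the distance was smallest in the leaf library after flowering and in the late library labelled roots.

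Part of this lay in loci that were below 1 FPKM. At least 1 FPKM was reached by 65.4% of members in flowers and 43.6% in milk grains, the highest and the lowest of the 8 libraries, against 79.9% and 61.0% of the rest. The difference was largest in early roots, where 53.3% of members and 71.5% of the rest reached this level, and smallest in late leaves, with 61.4% and 68.1%. Among loci that did reach 1 FPKM, the ratio of the medians, members over the rest, was closer to 1 and lay between 0.634 in flower buds and 0.814 in late leaves. Values listed at exactly 0 were found for 4.18% to 11.7% of members, against 1.60% to 6.25% of the rest. An exact 0 can be a failed estimate. Of the 766 members, 7 were listed at 0 in some library and had at least 100 FPKM in another, against 195 of all 31187 loci.

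Members reached 1 FPKM in fewer libraries. Of the 766 members, 228 (29.8%, 26.6% to 33.1%) had at least 1 FPKM in all 8 libraries, against 911 (45.5%, 43.4% to 47.7%) of the rest and 42.4% of all loci of the table. In only 1 library this level was reached by 146 members (19.1%, 16.4% to 22.0%), 221 loci of the rest (11.0%, 9.75% to 12.5%) and 13.1% of all loci. The median member reached it in 4 libraries and the median locus of the rest in 7. Without the late library labelled roots the share in all libraries was 29.8% for members and 45.7% for the rest. Over the first 17 Mb of the other chromosomes the share in all 8 libraries lay between 31.9% and 51.6%, so that chromosome 4 again was the lowest of 12, close to chromosome 10. On 2 other measures it was not at the end: the median over loci of the mean FPKM was 2.72 on chromosome 4 and 2.63 on chromosome 10, and the share of loci at 1 FPKM in only 1 library was 19.1% on chromosome 4 and 19.3% on chromosome 10. Low level and narrow breadth were thus not particular to chromosome 4.

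**Figure D3:**
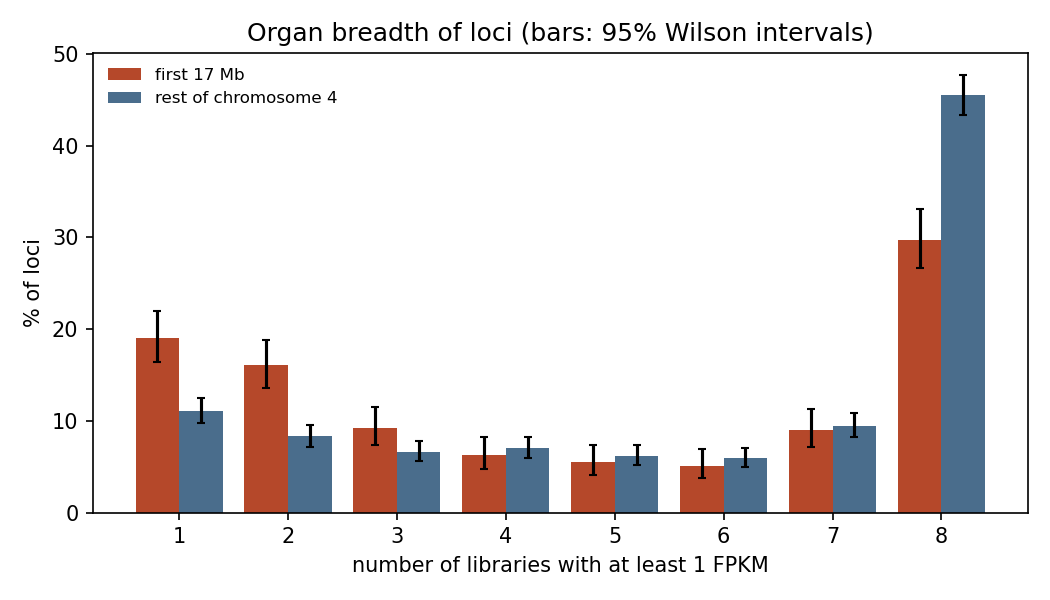
Percentage of loci by the number of libraries, from 1 to 8, in which they had at least 1 FPKM, for members in the first 17 Mb and for the rest of chromosome 4, with 95% Wilson intervals. Members were more frequent at 1 and 2 libraries (19.1% and 16.1%, against 11.0% and 8.30%) and less frequent at 8 (29.8%, against 45.5%).

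The breadth of a locus moved with its level, so it was also set out by the highest FPKM of each locus, in classes chosen after the data were seen. Below 5 FPKM lay 42.4% of members and 26.9% of the rest, and of these 13 of 325 members (2.35% to 6.72%) and 44 of 538 loci of the rest (8.18%, 6.15% to 10.8%) reached 1 FPKM in all 8 libraries. Between 5 and 20 FPKM the shares were close, with 45.9% of 233 members and 47.6% of 655 loci of the rest. Between 20 and 100 FPKM they were 53.8% (46.0% to 61.3%) of 160 members and 68.0% (64.2% to 71.6%) of 613 loci. At 100 FPKM or more they were 45.8% (32.6% to 59.7%) of 48 members and 70.8% (64.0% to 76.7%) of 195 loci. The intervals of members and the rest did not overlap in the 2 upper classes, and they overlapped in the class of 5 to 20 FPKM and in that below 5 FPKM.

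Members differed in which library was highest. Over the 7 libraries, leaves held the highest value of 280 members (36.6%, 33.2% to 40.0%), against 28.5% (26.6% to 30.5%) of the rest and 29.8% of all loci. Flowers or buds did so for 27.4% of members and 25.9% of the rest, seeds for 23.0% and 27.9%, and early roots for 13.1% (10.9% to 15.6%) and 17.7% (16.1% to 19.4%).

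Members took between 17.8% of the FPKM summed over chromosome 4, in mature seeds and in early roots, and 26.6%, in late leaves, with 27.7% of its loci. The 10 highest members of each library took 32.8% of the members' sum in flowers and 54.8% in milk grains, the lowest and the highest of the 8 libraries. Since the sets differ in size, the highest 1% of loci were also compared, 8 members and 20 loci of the rest. They took 28.1% to 51.2% of the sum of members, 19.4% to 43.7% of the sum of the rest and 29.9% to 51.8% of the sum of all loci, so that the members' share was near that of the whole table.

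The member with the highest mean was XLOC_036556 (15924223 to 15928257). It had 2102 FPKM in late leaves and 646 in early leaves, 1841 in the late library labelled roots and 37.1 in early roots. It had 74.6 FPKM in flowers, 35.9 in flower buds, 55.6 in mature seeds and 7.77 in milk grains. It made up 17.7% of the members' sum in late leaves. All 3 libraries with a leaf profile stood above the other 5.

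The next 4 by mean level were strong in every organ. XLOC_041159 (16435027 to 16435333) lay between 138 FPKM in milk grains and 614 in late leaves. XLOC_038838 (9367934 to 9369158) lay between 128 FPKM in flower buds and 739.7 in milk grains. XLOC_039359 (16645700 to 16648408) lay between 132 FPKM in early leaves and 512 in milk grains. With XLOC_036592 (16457814 to 16461148), which lay between 126 FPKM in the late library labelled roots and 335 in mature seeds, 4 of the 5 strongest loci fell in the last 2 windows of the region.

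Strong expression in all libraries was less frequent among members. Of the 497 members with a position of their own, 28 (5.63%, 3.93% to 8.02%) reached 10 FPKM or more in all 8 libraries, against 170 of 1325 (12.8%, 11.1% to 14.7%) in the rest and 12.9% over all loci. The steadiest was XLOC_035703 (4436745 to 4441657), with values between 27.3 FPKM in milk grains and 41.5 in late leaves, a range of 0.58 of log2(FPKM + 1) over the 7 libraries. Its neighbour XLOC_038409 (4441880 to 4444004) was the second, between 16.99 FPKM in early leaves and 31.4 in milk grains. XLOC_036592, XLOC_036237 (11272493 to 11286378) and XLOC_038335 (3555219 to 3562917) followed, with ranges between 0.93 and 0.95.

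Leaf-enriched loci were the largest organ group of the region. A locus was counted as enriched in an organ when the higher library of that organ had at least 10 FPKM and, after 1 FPKM was added to both, exceeded every other organ at least 5-fold, over 7 libraries. By this rule 33 members were leaf-enriched (4.31%, 3.08% to 5.99%), against 29 loci of the rest (1.45%, 1.01% to 2.07%) and 1.74% of all loci. The flower group held 26 members (3.39%, 2.33% to 4.93%), against 52 loci of the rest (2.60%, 1.99% to 3.39%) and 2.47% of all loci. The root group held 16 members (2.09%, 1.29% to 3.37%), against 61 (3.05%, 2.38% to 3.90%) and 2.94% of all loci. The seed group held 19 members (2.48%, 1.59% to 3.84%), against 47 (2.35%, 1.77% to 3.11%) and 2.95% of all loci. In all, 94 members were enriched in some organ (12.3%, 10.1% to 14.8%), against 9.45% of the rest and 10.1% of all loci. In the flower, root and seed groups the intervals of members and the rest overlapped, and those of the leaf group did not. The leaf count rested on the late leaf library and on leaving out the late library labelled roots: it was 12 from early leaves alone, 29 from late leaves alone, and 1 with the late library labelled roots counted as root.

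**Figure D4:**
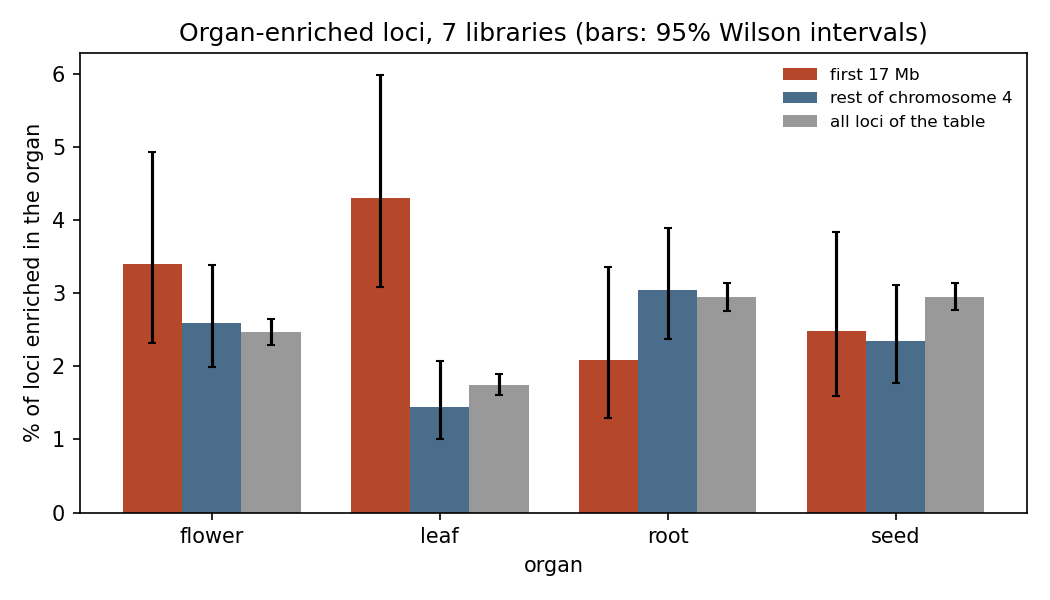
Percentage of loci enriched in each organ, over 7 libraries, for members in the first 17 Mb, for the rest of chromosome 4 and for all 31187 loci, with 95% Wilson intervals over loci. The leaf bar of the members, 4.31%, is 2.97 times that of the rest, 1.45%, and the intervals of members and the rest overlap for the other organs.

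Per length of chromosome, the region held 1.94 leaf-enriched loci per Mb and the rest 1.57. All other groups were sparser in the region, with 1.53 per Mb in the region and 2.81 in the rest for the flower, 0.941 and 3.30 for the root and 1.12 and 2.54 for the seed. The leaf-enriched members were spread over 14 of the 17 windows. Over the first 17 Mb of the other 11 chromosomes, the leaf-enriched share lay between 0.750% and 3.72%, with a median of 1.89%, all below that of chromosome 4. The nearest was chromosome 9.

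Among the 33 leaf-enriched members the median was 30.7 FPKM in late leaves and 9.20 in early leaves. In the late library labelled roots, which the rule did not use, it was 22.6 FPKM, and in early roots 0.608. In flowers, flower buds, mature seeds and milk grains the medians were 0.429, 0.474, 0.584 and 0.130 FPKM. The leaf-enriched members took 35.8% of the members' summed FPKM in late leaves and 18.0% in early leaves. They took at most 1.99% in the flower, seed and root libraries of the rule. The rule had set leaves at least 5-fold above every other organ, so the low medians and shares there followed largely from the choice. In late leaves the leaf-enriched loci of the rest took 6.06% of the sum of the rest, and those of all loci 13.9%. XLOC_036556 alone made up 17.7% of the members' sum in late leaves. The highest ratio to the other organs was that of XLOC_035643 (3766124 to 3768464). It had 79.8 FPKM in late leaves, 16.3 in early leaves and 62.6 in the late library labelled roots. Its highest value elsewhere was 0.689 FPKM, in early roots.

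In the higher flower library the flower-enriched members had a median of 25.1 FPKM, against 39.9 in the rest and 38.7 over all loci. Their highest value, 495 FPKM, was also below that of the rest, 656. As a group they took 27.3% of the members' sum in flowers, against 10.6% in the rest and 10.4% over all loci. Some of these members were very strong. How many loci of the rest, or of all loci, were as strong was not determined. Of the 26, 7 had at least 100 FPKM in both flowers and flower buds, and these 7 took 22.8% of the members' sum in flowers and 25.4% in flower buds. They lay in 3 places. A run of 3 neighbouring loci of 680 to 700 bases each, between 14534792 and 14559618, had 203 to 401 FPKM in flowers and 189.8 to 480.3 in flower buds. A second run of 3 lay between 15269071 and 15293235, and its members had 64.8, 495 and 324 FPKM in flowers and 75.7, 492 and 300.4 in flower buds. The other strong pair lay at 6053567 to 6054990 and 6091274 to 6096959, with 264 and 265 FPKM in flowers and 306 and 241 in flower buds. All 7 strong loci had 1.63 FPKM or less in each of the other 6 libraries, and they were highest there in milk grains. XLOC_039221 of the first run had the highest ratio of the group, with 358 FPKM in flowers, 480.3 in flower buds and 1.54 in milk grains. Whether the loci of a run are copies of each other could not be examined without sequences, and how reads that map to several places were counted was not stated.

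Root-enriched members had a median of 57.5 FPKM in early roots. XLOC_035533 (2046786 to 2048120) had the highest ratio, with 309.9 FPKM in early roots and 0.173 or less in the other 7 libraries. A run of 3 neighbours between 5986671 and 6012499 had 364, 20.9 and 53.5 FPKM in early roots. Another run, of 3 neighbouring positions, lay between 7008891 and 7222440. Its middle position was a span shared by 17 loci (7014341 to 7168836), counted for the root-enriched XLOC_035891. The same span also held the leaf-enriched XLOC_040995, so this run is not one of root loci alone. All 16 root-enriched members, chosen on early roots, were at least 4-fold lower in the late library labelled roots. The rule had set early roots at least 5-fold above both leaf libraries. The late library labelled roots has a leaf profile, so this count followed largely from the choice.

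Seed-enriched members were led by XLOC_038452 (5005076 to 5006210), with 199 FPKM in mature seeds and 1335 in milk grains. It had 1.04 FPKM in early roots and 0.111 in flowers. It had 0.00457 FPKM in early leaves and was listed at 0 in the remaining libraries. It alone made up 16.4% of the members' sum in milk grains. On a pair of positions between 11638314 and 11660149, 4 seed-enriched loci lay side by side. The 3 loci that shared a span there were lower in mature seeds (16.5, 1.505 and 1.16 FPKM) than in milk grains (72.1, 21.2 and 16.997 FPKM). The fourth locus had 46.8 FPKM in mature seeds and 1.495 in milk grains.

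Some enriched members lay beside others of the same organ. Positions with an enriched locus were counted within each organ group, so a position in several groups counts in each. Of 90 positions so counted for members, 31 (34.4%) had a neighbouring position in the table that was enriched in the same organ. This held for 23 of 183 (12.6%) in the rest and 18.9% of 3002 over all loci. How far the frequency of each group bears on these shares was not tested. The enriched share of members over that of the rest was 2.97 for the leaf, 1.31 for the flower, 1.06 for the seed and 0.685 for the root. Positions beside one of the same organ were 10 of 25 for members and 7 of 52 for the rest in the flower group. In the leaf group they were 9 of 33 and 2 of 27, in the root group 8 of 16 and 8 of 59, and in the seed group 4 of 16 and 6 of 45. Among all members with a position of their own, 36.5% of 496 neighbouring pairs had their highest value in the same organ, against 29.6% of 1324 pairs of the rest. The organ shares of the loci alone give 26.4% for members and 25.6% for the rest.

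Late leaves stood above early leaves at many members. A locus was called different between a pair of libraries when FPKM + 1 differed 4-fold or more (a log2 ratio of 2) and at least 5 FPKM were reached in the higher one. This scale understates the ratio of low loci. Of 301 members at this level, 29 (9.63%, 6.79% to 13.5%) were at least 4-fold higher after flowering, against 3.86% (2.83% to 5.23%) of the rest and 3.88% of all loci. In the other direction there were 5 (1.66%, 0.712% to 3.83%), against 2.67% of the rest and 2.50% of all loci. Over the first 17 Mb of the other chromosomes the share higher after flowering lay between 2.10% and 7.25%. The median log2 ratio was 0.13 for members, 0.03 for the rest and 0.06 for all loci.

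**Figure D5:**
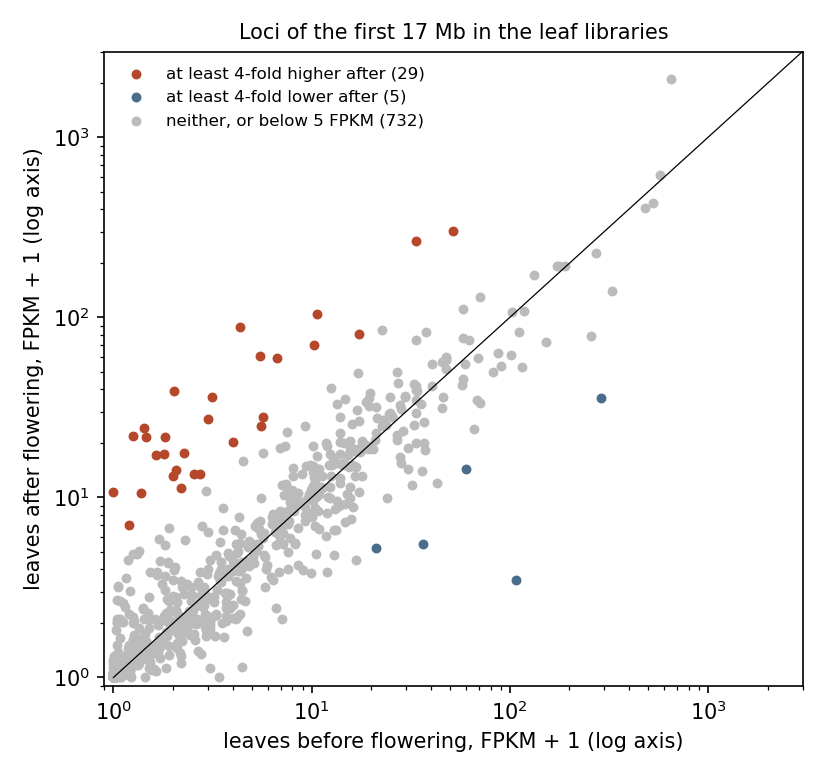
Each of the 766 members by its FPKM + 1 in late leaves (vertical) and in early leaves (horizontal), on log axes, with the line of equal values. The 29 members at least 4-fold higher after flowering spread along the upper left, and 5 lie as far on the other side.

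The 29 higher members had a median of 20.9 FPKM in late leaves and 1.56 in early leaves. In the late library labelled roots, which has a leaf profile, their median was 10.4 FPKM. There 23 of the 29 had at least 5 FPKM. In early roots 8 of them had at least 5 FPKM, in flowers 4, in flower buds 2, in mature seeds 3 and in milk grains 0. Such counts were not made for the loci called in the rest or over all loci. Of the 33 leaf-enriched members, 19 were among the 29 and none among the 5, though the same leaf libraries chose that group. The highest ratio was that of XLOC_039077 (12533989 to 12540114), with 87.9 FPKM in late leaves and 3.35 in early leaves, a log2 ratio of 4.35. It had 33.4 FPKM in the late library labelled roots and 2.06 in early roots.

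A stretch of the short arm held a run of such loci, and it was picked out after its values were seen. Between 5318023 and 5486773, a length of 169 kb, the table held 7 members, of which 5 were at least 4-fold higher in late leaves, with log2 ratios of 2.30 to 3.15. The 5 had 68.9, 12.4, 16.8, 10.3 and 58.2 FPKM in late leaves, in order along the chromosome, and 9.29, 1.74, 1.27, 1.20 and 5.67 FPKM in early leaves. In early roots the same loci had 54.5, 20.4, 15.8, 2.58 and 9.52 FPKM. A sixth locus in this stretch (5380069 to 5381565) had 14.9 FPKM in late leaves, 3.52 in early leaves and 58.6 in early roots, and its log2 ratio of 1.81 in leaves was below the limit. In flowers, flower buds, mature seeds and milk grains all 6 were at 4.62 FPKM or less. The seventh was listed at 0 in both leaf libraries and had 2.23 FPKM in flowers.

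The 5 members lower in late leaves lay at 3 places. XLOC_035459 (1125770 to 1126731) had 13.4 FPKM in late leaves and 59.3 in early leaves, and its neighbour at 1110646 to 1118973 had 4.21 and 20.1 FPKM. A locus on a span shared by 2 (13465251 to 13469420) had 2.47 FPKM in late leaves and 106 in early leaves. It had 853 FPKM in early roots and 1.66 in the late library labelled roots. The other locus of its span had 4.52 FPKM in late leaves, 35.4 in early leaves and 155 in early roots. The fifth, XLOC_040961, on a span shared by 3 loci (5590268 to 5592699), had 34.8 FPKM in late leaves and 287 in early leaves.

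Flowers and flower buds were close. Of 281 members, 1 was at least 4-fold higher in flowers (0.356%), against 0.547% of the rest and 0.730% of all loci, and 0 were lower, against 0.729% of the rest and 0.436% of all loci. The higher one was XLOC_040961, with 82.3 FPKM in flowers and a listed 0 in flower buds, and no ratio is given for it. Among members with a position of their own 20 FPKM or more in either library and no listed 0, XLOC_035747 (5178237 to 5186509) had the highest log2 ratio, 1.41, with 24.9 FPKM in flowers and 8.79 in flower buds. The lowest was -1.91, at XLOC_038830 (9291212 to 9291999), with 7.91 FPKM in flowers and 32.6 in flower buds. Both were below the 4-fold limit.

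Mature seeds stood above milk grains at more members than below them. Of 256 members, 49 (19.1%, 14.8% to 24.4%) stood 4-fold or more higher in mature seeds, against 18.4% of the rest and 18.6% of all loci, and 21 (8.20%, 5.43% to 12.2%) were lower, against 5.96% and 7.38%. These shares are near the background. The highest ratio was that of XLOC_035701 (4405753 to 4418893), with 1002 FPKM in mature seeds and 19.1 in milk grains, a log2 ratio of 5.64. It had 4.27 FPKM or less in the other 6 libraries and made up 13.9% of the members' sum in mature seeds. The lowest was XLOC_041154 (16289089 to 16289396), with 0.345 FPKM in mature seeds and 32.9 in milk grains, a log2 ratio of -4.66. The 49 higher members had at least 5 FPKM in flowers in 35 cases, in early leaves in 31 and in early roots in 26. The same counts were not made for the rest or for all loci, so they do not set the region apart.

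Members leaned towards the leaf when early leaves and early roots were compared. Of 304 members, 62 (20.4%, 16.2% to 25.3%) were at least 4-fold higher in early leaves, against 13.7% (11.8% to 15.8%) of the rest and 14.8% of all loci. At least 4-fold lower in early leaves were 43 (14.1%, 10.7% to 18.5%), against 17.9% (15.8% to 20.3%) of the rest and 16.2% of all loci. The median log2 ratio, leaves over roots, was 0.46 for members, 0.11 for the rest and 0.18 for all loci. Scaling the libraries by the median of ratios shifted the median of all loci by -0.39, and the members' counts were then 56 higher and 54 lower.

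In the pair labelled roots, members were also called higher in the later library, the one with a leaf profile, more often than the rest. Of 321 members, 69 (21.5%) were at least 4-fold higher in the late library labelled roots, against 12.5% of the rest and 14.1% of all loci, and 38 (11.8%) were lower, against 18.3% and 16.0%. This comparison shares early roots with the one of leaves and roots. XLOC_038800 (9075138 to 9077953) had the highest ratio, with 215 FPKM in the late library labelled roots and 0.217 in early roots, and with 139.9 FPKM in late and 328 in early leaves. XLOC_035808 (5986671 to 5990234) had the lowest, with 0.130 FPKM in the late library labelled roots and 364 in early roots. In both leaf libraries it had 0.253 FPKM or less. Whether these ratios describe roots was not tested.

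Of the loci nearest to the boundary, those just outside were weak, as was the farther of those just inside. Nearest to it inside, XLOC_039379 (16993760 to 16996903) had 12.2 FPKM in late leaves and 1.18 or less in the other libraries, and it was among the leaf-enriched members and those higher in late leaves. Its neighbour (16965867 to 16966169) had 1.32 FPKM in flowers and was listed at 0 in 6 libraries. Just outside, XLOC_041179 (17015474 to 17016261) had 3.53 FPKM in flowers and was likewise listed at 0 in 6 libraries, and XLOC_036639 (17044276 to 17046921) had its highest value, 2.95 FPKM, in early roots. No locus spanned the boundary.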

How the data were processed

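The authors deposited 1 table of FPKM values, 1 value per locus and library, and FPKM are not counts. Per the file headers, positions are on MSU Rice Genome Annotation Project Release 7. The submitters' processing notes name TopHat, Cufflinks and Cuffdiff. Their versions and settings, and the treatment of reads from repeats, were not given in the sources used here. Every locus exceeded 1 FPKM in some library (lowest row maximum 1.00001), so loci silent throughout are not analysed here. The read depth is unknown: among 1512 loci below 0.15 FPKM in both flower libraries, no more than 1.52% of the log2 ratios fell into any bin of width 0.02, so no common step gave whole reads.

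Sets were compared by counts, medians and shares in Python 3.11.15 with pandas 2.3.3, without a test, since each group had 1 library. The rules for calls and enrichment were tried on simulated data, with planted changes larger than the limits and at strong loci only. Changes near the limits and weak loci were not covered. Density used 17 Mb for the region and the distance from there to the last locus for the rest. Loci named by rule shared no position: the 5 highest means over 7 libraries, the highest ratio per organ, the highest and lowest ratio per stage pair with at least 20 FPKM, the 5 steadiest, and the loci beside the boundary and the widest gap. Loci named outside this rule, and the runs, were chosen after their values were seen. The region, the rules and the lists were chosen with earlier results of these data known. Alternatives were other region ends, limits, pseudocounts, folds and scalings.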

Additional observations from a re-analysis of the deposited data

Results flagged for a closer look

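Members called in opposite directions by the flower and the leaf pair numbered 1. This locus, XLOC_040961, was at least 4-fold higher in flowers than in flower buds and at least 4-fold lower in late than in early leaves. It had 82.3 FPKM in flowers and a listed 0 in flower buds, and 34.8 FPKM in late and 287 in early leaves. It shares its span with 2 others of the table, 3 loci in all, and whether the pairs differ was not tested.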

How the results depend on the processing

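No paired analysis was possible because each group held 1 library and no test was made. Of 128 alternative values for 21 results, 101 stayed near the reported value and 27 moved. Where a value moved, the cause was not tested. Only the differences in level, in share at 1 FPKM, in breadth and in shared spans could change sign, and 0 did. Counts, the ratio of densities and the share of summed FPKM cannot change sign. A count was taken as near within a set fold, so the balance of higher and lower members could still shift. The ratio of densities, 0.417, was 0.467 with the region ended at 12 Mb and 0.328 among loci with at least 5 FPKM in some library. The difference of median levels, members minus the rest, averaged over libraries, was -0.90 on the log2(FPKM + 1) scale, -1.24 with a pseudocount of 0.1 and -0.34 among loci with at least 5 FPKM in some library. For those loci the difference in the share at 1 FPKM was -7.01 percentage points in place of -13.6, and that in the share in all libraries -10.5 in place of -15.8. That difference was -10.5 with a limit of 5 FPKM. By highest FPKM it was -4.18 below 5, -1.71 from 5 to 20 and -24.9 at 100 or more. Members' mean share of the chromosome's FPKM, 21.3%, was 17.8% without the 10 highest loci on each side. With the late library labelled roots counted as root, 62 members in place of 94 were enriched, and 1 (XLOC_039379) in place of 33 in the leaf. From early leaves alone, chosen after the data were seen, 12 members were leaf-enriched (1.57%, against 0.500% of the rest), and from late leaves alone 29 (3.79%, against 1.05%), so that the leaf count depended on the later library. Among the 497 members with a position of their own, fewer loci by construction, the counts were 12 seed-enriched, 0 higher in flowers, 2 lower in late leaves, 31 higher and 11 lower in mature seeds, 38 higher in the pair labelled roots and 30 higher in leaves than in roots. At 3-fold, 3 members were higher and 2 lower in flowers, 10 lower in late leaves and 35 lower in mature seeds. With a pseudocount of 0.1, 3 were higher and 1 lower in flowers. Median-of-ratios scaling shifted the median log2 ratio of all loci by -0.34 for seeds, -0.38 for the pair labelled roots and -0.39 for leaves against roots, and members' counts were then 44 higher and 29 lower, 59 and 45, and 56 and 54.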
